A study of Saccharomyces cerevisiae with 2 samples.

Results

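The regions described here are the stretches of the yeast genome that yielded at least 2-fold fewer nucleosomal DNA tags under phosphate starvation than in high phosphate. The 16 nuclear chromosomes of Saccharomyces cerevisiae were cut into bins of 1 kb. A bin was called depleted when it held 20 or more tags over both libraries and its log2 ratio of starvation over high phosphate, corrected for library size by nuclear tags and with 0.5 added to each count, was -1 or less. Of 11716 bins with any tag, 11560 passed the tag minimum and 1020 were depleted. That is 8.82% of the bins tested, and because the ratio itself chose the bins, this share and the size of the fall describe the choice. Another 747 bins (6.46%) were at least 2-fold higher in starvation and are used here for comparison.

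Both cultures carried PHO4-MYC::TRP1 and CBF1-3HA::LEU2, so that the phosphate regulator Pho4 and the DNA-binding factor Cbf1 each carry an epitope tag. Both had been starved of phosphate for 3 hours, and for 80 minutes one was then given 0 mM phosphate (starvation) and the other 10 mM (high phosphate). Nucleosome-sized DNA left by micrococcal nuclease was sequenced from 1 library per condition, so there is no replicate check, no test between conditions was possible, and a library and its condition cannot be told apart. The starvation library held 1001229 nuclear tags, with a median of 74 per tested bin, and the high phosphate library 2598022, with a median of 225.

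A nucleosome is DNA wrapped around a core of histone proteins, and micrococcal nuclease cuts the linker DNA between nucleosomes first. Where nucleosomes sit at the same place in most cells of a culture, tags pile up at regular positions with nearly empty linkers between them. Where positions differ from cell to cell, tags spread evenly, and such nucleosomes are called fuzzy. In yeast, promoters typically hold a nucleosome-depleted stretch followed by a well-ordered array, and order fades along the gene body. A lower tag yield can reflect fewer nucleosomes as well as DNA that was cut more or less completely, and these cannot be told apart from tag counts.

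Depleted bins were poor in starvation tags but ordinary in high phosphate. In starvation they held 1 to 68 tags, with a median of 38, or 0.514 times the median tested bin. Under high phosphate their counts ran from 18 to 362, with a median of 226, beside 225 in the median tested bin. All 1020 lay below the median bin in starvation, while 515 lay above it in high phosphate. Only 22 depleted bins (2.16%) were at or below 0.5 of the median in high phosphate, beside 2.72% of all tested bins. Together the depleted bins took 3.85% of nuclear tags in starvation (95% exact binomial interval 3.81% to 3.89%, counting error only) and 8.87% in high phosphate (8.83% to 8.90%).

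The ratio that chose the bins is made of both tag counts, and the starvation counts vary more between bins, so a link to the starvation rank is built into the choice and is given as a description. Bins were ranked by tags and split into 10 classes of 1156. In the class with fewest starvation tags (1 to 40), 52.2% were depleted, and in the next (40 to 49 tags) 25.7%. No bin in the upper 5 classes was depleted. Ranked by high phosphate tags, the share stayed between 6.40% in the lowest class and 10.9% in the class with 237 to 250 tags. Tag number also varied more between bins in starvation, with a coefficient of variation of 0.559 over the tested bins against 0.242 in high phosphate.

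**Figure D1:**
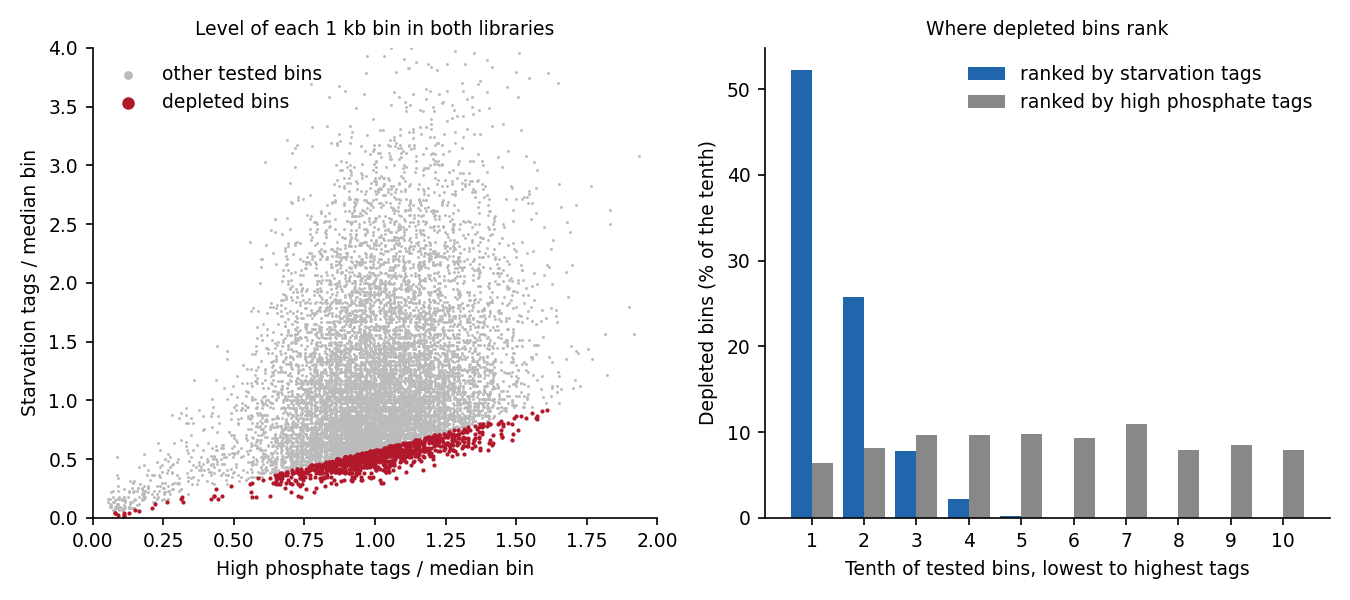
Left, tags of each tested 1 kb bin relative to the median bin, with high phosphate on the horizontal and starvation on the vertical axis; 27 bins, none of them depleted, lie beyond the axes. Right, depleted bins as a percentage of each of 10 classes of bins ranked by tags; the share drops from 52.2% to 0 along the starvation ranking and stays between 6.40% and 10.9% along the high phosphate ranking.

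Most depleted bins lay close to the threshold. The median log2 ratio was -1.15, with 362 bins above -1.1, 68 at or below -1.5 and 4 at or below -2. Just inside were chromosome 2 from 397001 to 398000 and chromosome 15 from 129001 to 130000, each with 31 starvation and 163 high phosphate tags, and chromosome 14 from 158001 to 159000 with 52 and 272 tags, all at -1.0002. Just outside were chromosome 3 from 144001 to 145000 and chromosome 4 from 79001 to 80000, each with 47 and 246 tags (log2 ratio -0.9999), and chromosome 1 from 148001 to 149000 with 42 and 220 tags (-0.9996). Counting error blurs this border: the 95% exact conditional binomial interval ended below 0 for 1016 depleted bins but below -1 for only 51, and 2703 bins that were not called had an interval that included -1.

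The number of depleted bins depends on scaling and pseudocount. With each library scaled to its median 10 kb bin, 725 bins were 2-fold lower and 915 higher, so the share of lower bins among them moved from 57.7% to 44.2%. With 5 in place of 0.5 added to each count, 565 were lower.

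On each chromosome the bin whose interval lay furthest below 0 is described. Coordinates are those of the deposited files (sacCer1), and no gene is assigned to any bin because no annotation of that build was used here. On chromosome 5, the bin from 433001 to 434000 held 13 starvation and 166 high phosphate tags, which gives a log2 ratio of -2.25 (interval -3.24 to -1.49). Its 200 bp parts held 3, 1, 3, 4 and 2 starvation tags against 35, 38, 37, 29 and 27 in high phosphate. Starvation tags were few in all 5 parts.

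On chromosome 4, the bin from 379001 to 380000 held 14 and 164 tags (log2 ratio -2.13, interval -3.08 to -1.39). Its 200 bp parts held 0, 1, 2, 7 and 4 starvation tags against 38, 32, 31, 43 and 20. Here the left side was almost empty in starvation while high phosphate tags covered it. The bin to its left was higher in starvation (119 and 187 tags, log2 ratio 0.73).

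On chromosome 11, the bin from 546001 to 547000 held 16 starvation and 176 high phosphate tags (-2.04, interval -2.92 to -1.34). The bin to its left was also depleted, with 28 and 207 tags (-1.49). On chromosome 13, the bin from 613001 to 614000 held 22 and 231 tags (-1.99, -2.72 to -1.38). It too followed a depleted bin, with 36 and 219 tags (-1.21). On chromosome 15, the bin from 1020001 to 1021000 held 22 and 230 tags (-1.98, -2.71 to -1.38), and its 200 bp parts held 4 or 5 starvation tags each against 30 to 69 in high phosphate. In the last 2 of these bins the high phosphate level was 1.03 and 1.02 of the median bin. The leading bins on chromosomes 5, 4 and 11 were below the median in high phosphate too, at 0.738, 0.729 and 0.782.

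On the remaining chromosomes the bin with the interval furthest below 0 was 2.78 to 3.64 times lower in starvation. The largest fold among these was on chromosome 7 from 179001 to 180000, with 13 and 127 tags (-1.86), beside a bin on its right that was higher in starvation (132 and 231 tags, 0.57). Chromosome 9 from 65001 to 66000 held 18 and 170 tags (-1.83), and chromosome 8 from 196001 to 197000 held 20 and 185 (-1.80). On both, the left neighbour was depleted as well, with 38 and 225 tags on chromosome 9 and 43 and 241 on chromosome 8. In high phosphate the leading bins on chromosomes 7, 9 and 8 were at 0.564, 0.756 and 0.822 of the median bin.

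Chromosome 2 from 129001 to 130000 held 23 and 207 tags (-1.77), chromosome 1 from 104001 to 105000 held 24 and 215 (-1.76) and chromosome 14 from 423001 to 424000 held 25 and 222 (-1.75). In high phosphate these 3 bins were at 0.92 to 0.987 of the median bin, and in starvation at 0.311 to 0.338. Chromosome 12 from 749001 to 750000 held 29 and 250 tags (-1.71) and chromosome 16 from 629001 to 630000 held 33 and 272 (-1.65). Both had a left neighbour with more starvation tags than the median bin, 153 and 154. Chromosome 10 from 208001 to 209000 held 29 and 236 tags (-1.63), chromosome 6 from 59001 to 60000 held 19 and 153 (-1.60) and chromosome 3 from 281001 to 282000 held 28 and 205 (-1.47). High phosphate levels were 1.11, 1.21 and 1.05 of the median bin on chromosomes 12, 16 and 10. They were 0.68 and 0.911 on chromosomes 6 and 3. For chromosomes 3 and 6 the upper bound of the interval, -0.92 and -0.94, lay above the -1 that the rule asks for.

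Within the bins the fall was spread over several 200 bp parts, which a 2-fold fall of the whole bin largely requires. Of the depleted bins, 944 (92.5%) had a ratio below 0 in all 5 parts, beside 24.7% of all tested bins. At least 3 parts were 2-fold lower in most bins. Of the depleted bins 488 (47.8%) had 3, 245 (24%) had 4 and 38 (3.73%) had 5. Over all tested bins the shares were 9.87%, 2.69% and 0.329%. Over all depleted bins 61.3% of the parts with tags were 2-fold lower, beside 24.1% of the parts of all tested bins, a difference that the choice of bins itself makes. The median part held 7 starvation tags at each of the 5 positions along the bin and 43 to 45 high phosphate tags, so no end of the bin stood out. A part with no starvation tag occurred in 44 depleted bins (4.31%), and the share over all tested bins was not counted.

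Both strands showed the fall. The median log2 ratio of the depleted bins was -1.18 for plus-strand tags and -1.19 for minus-strand tags, and both were below 0 in all 1020 bins. Both were at or below -1 in only 473 of these (46.4%). Since both strands entered the choice, bins were also chosen on 1 strand and read on the other. The 1345 bins chosen on plus-strand tags had a median of -1.23 on that strand and -0.84 on the minus strand, where 473 of them (35.2%) were at or below -1, beside 11.7% of all bins on that strand. The 1355 bins chosen on minus-strand tags had -1.22 and, on the plus strand, -0.85, with 472 (34.8%) at or below -1, beside 11.6% of all bins. The strands come from the same libraries and largely the same nucleosomes, so reading the other strand does not stand in for a second culture.

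Starvation tag density rose back towards the genome level within a few kb of a depleted bin. Averaged over 1016 depleted bins with complete surroundings, starvation tags stood at 0.427 to 0.457 of the genome mean inside the bin. They stood at 0.666 and 0.680 in the first 100 bp outside its left and right border and at 0.907 and 0.944 around 1650 bp from its centre. High phosphate tags stayed between 0.994 and 1.06 along the same 3.3 kb, with no dip or peak at the bin. Further out the rise in starvation tags was uneven, with 0.918 and 0.920 at 2450 bp on the left and right. At 3450 bp they stood at 0.979 and 1.04. The steep border is a product of choosing whole bins, and the surroundings include other depleted bins. Around the 514 depleted bins with no other within 3 kb, a subset formed after seeing the data whose neighbours were thereby chosen for not being depleted, starvation tags stood at 0.738 and 0.741 just outside the borders.

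**Figure D2:**
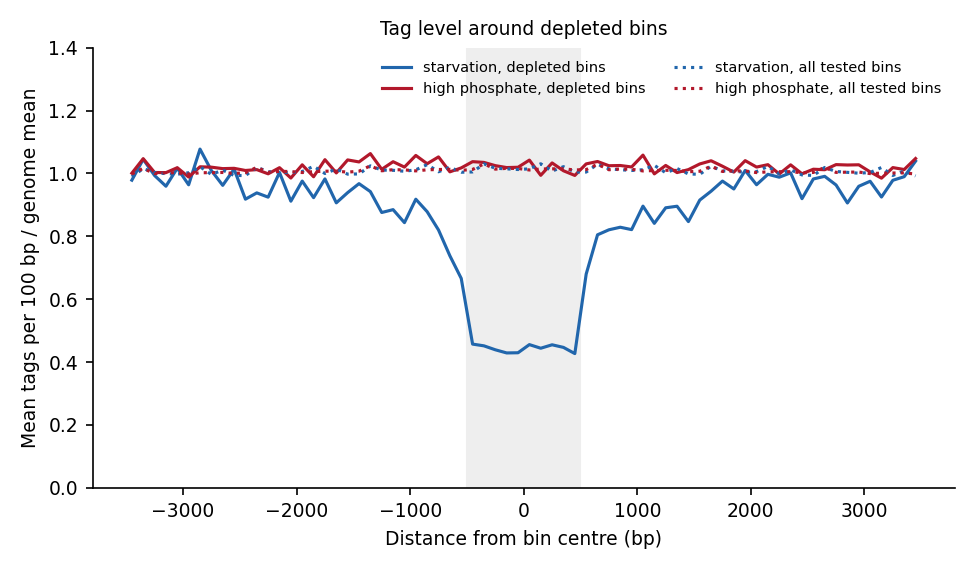
Mean tags per 100 bp, relative to the genome mean, against the distance from the centre of 1016 depleted bins (solid) and of all tested bins (dotted); the grey band marks the bin. Starvation falls to 0.427 to 0.457 inside the band with shoulders on both sides, and high phosphate stays near 1.

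Neighbouring bins followed the same direction in part. Among the bins next to a depleted bin, 14.8% were themselves depleted, beside 8.82% of all tested bins, and 1.58% were at least 2-fold higher in starvation, beside 6.46%. At 2 kb the shares were 9.09% and 4.30%, and at 5 kb they were 8.02% and 6.37%. Neighbours that were not depleted had a median log2 ratio of -0.34 at 1 kb, -0.22 at 2 kb and -0.15 at 4 kb, where all bins that were not depleted had -0.13. Their starvation level rose from 0.946 of the median bin at 1 kb to 1.05 at 4 kb, while their high phosphate level was 1.01 at 1 kb and differed from the median bin by less than 1% at 4 kb. Of 1012 depleted bins with both neighbours tested, 571 (56.4%) had both below 0, beside 39.6% of all tested bins, and 81 (8%) had both above 0, beside 18.3%. The other 360 (35.6%) had 1 on each side, beside 42.1%.

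Most depleted bins had no depleted bin next to them, where 8.82% of all tested bins were depleted. How many would stand alone at that share was not tested. Single bins made up 746 of the 1020 (73.1%), 103 runs held 2 bins, 16 held 3 and 5 held 4. The longest run depended on the processing, at 3 kb with bins starting 500 bp later, 5 kb after a correction for filled positions and 7 kb with plus-strand tags alone. With the later start 988 bins were called (8.55%), and 598 of the 1020 (58.6%) overlapped at least 1 of them, beside 15.9% of all tested bins. Bins with the later start that overlap a depleted bin share tags that made the choice. Over 2036 such overlaps, with called and uncalled bins alike, their median log2 ratio was -0.84.

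The 5 longest runs spanned 4 kb each and lay on different chromosomes. Chromosome 14 from 162001 to 166000 held 33, 33, 40 and 39 starvation tags in its bins against 210, 194, 240 and 239 in high phosphate, a pooled log2 ratio of -1.23 (interval -1.49 to -0.98). Chromosome 4 from 1142001 to 1146000 held 41, 50, 41 and 43 against 238, 305, 255 and 242 (-1.19, -1.43 to -0.96). Levels were steady along both runs. Chromosome 11 from 121001 to 125000 held 33, 37, 47 and 42 against 177, 200, 260 and 284 (-1.15, -1.41 to -0.91). Chromosome 12 from 1046001 to 1050000 held 46, 39, 48 and 52 against 252, 235, 290 and 282 (-1.14, -1.37 to -0.91). Chromosome 2 from 508001 to 512000 held 51, 57, 47 and 51 against 267, 308, 252 and 326 (-1.11, -1.33 to -0.89). On chromosomes 2, 4 and 12 high phosphate was above its median bin in all 4 bins of the run. Of the 10 bins bordering the runs, 9 had a ratio below 0, as 60.5% of all tested bins did. Of these, 8 lay between -0.47 and -0.72, and the right neighbour on chromosome 11 was at -0.22, the median of all tested bins. The right neighbour on chromosome 4 was at 0.34.

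**Figure D3:**
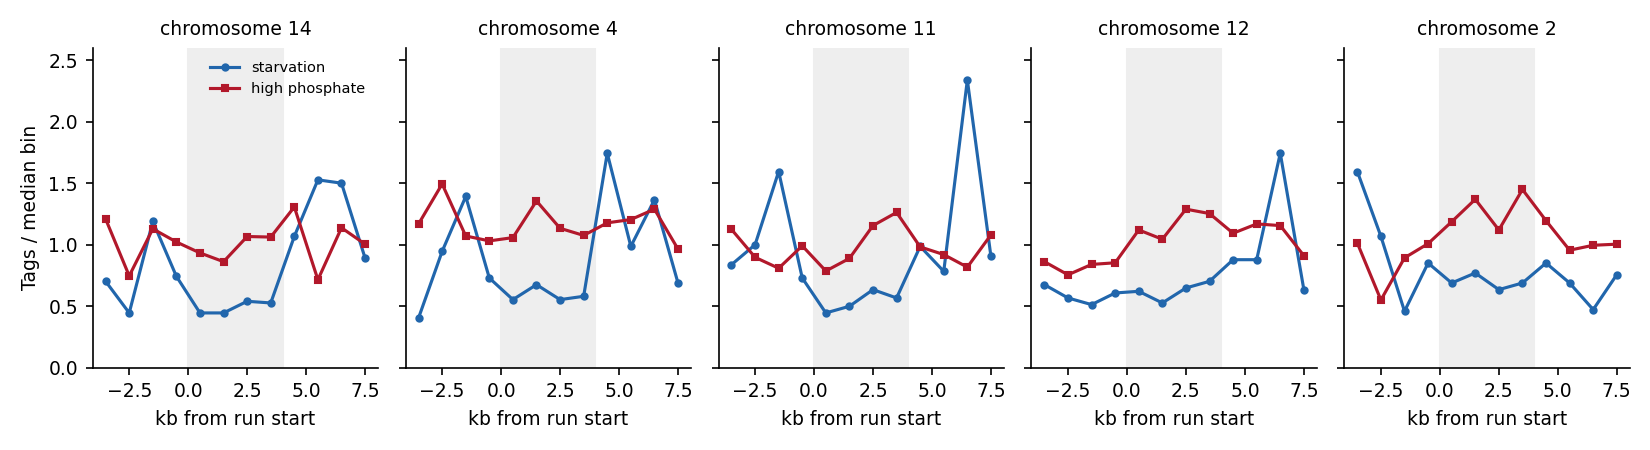
Tags relative to the median bin of each library in the 5 runs of 4 depleted bins (grey) and the 4 bins on either side, against the distance from the start of the run. Starvation lies below high phosphate throughout each grey band, and outside the bands it lies above or below. Scaling to the median bin sets starvation higher than the log2 ratios in the text, by the median ratio of all bins (-0.22).

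Tags showed a weaker nucleosome pattern in depleted bins in both libraries. Whether this reflects the positions of nucleosomes or how completely the DNA was cut was not tested. The choice used the number of high phosphate tags in a bin and did not use their arrangement directly. Repeated tags are missing from these data, which caps strong positions, so the number can itself depend on the arrangement. The high phosphate values below are therefore not independent of the choice, and the part of this link in them was not tested. Plus-strand and minus-strand tags mark the 2 ends of nucleosomal fragments, so their pairs peak at the fragment length, and the peak is taller where nucleosomes are well positioned. In high phosphate this peak stood at 1.20 ± 0.035 times the mean at 200 to 800 bp in depleted bins (mean and SD over 16 chromosomes) and at 1.39 ± 0.012 in tested bins that changed less than 2-fold. The difference was -0.19 ± 0.040, and the peak was lower in depleted bins on 16 of 16 chromosomes. In bins 2-fold higher in starvation it stood at 1.51 ± 0.056. Chromosomes are parts of 1 library and not replicates, so no test is given.

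In starvation the tags measured are those that chose the bins, so the values are a description. The peak stood at 1.62 ± 0.14 in depleted bins, 2.76 ± 0.089 in bins that changed less than 2-fold and 2.12 ± 0.15 in bins that were 2-fold higher, and it was lower in depleted than in other bins on 16 of 16 chromosomes. Bins with similarly few starvation tags had taller peaks. In 583 bins with 32 to 43 starvation tags that were not depleted, which had a median of 172 high phosphate tags, the peak stood at 2.12 ± 0.24 in starvation and 1.44 ± 0.12 in high phosphate. With all chromosomes pooled, which lowers the noise of the peak, these bins had 1.95 and 1.37, and depleted bins 1.57 and 1.18. With the high phosphate library thinned to the depth of the starvation library, the pooled peak of the depleted bins was 1.19. Thinning does not bring back the missing repeats, so it cannot decide their part in the peak.

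Nucleosome spacing differed by only a few bp between depleted and other bins, and the array was shallower in depleted bins. With all chromosomes pooled, same-strand tags peaked at 167 bp in depleted bins in both libraries. In bins that changed less than 2-fold they peaked at 169 bp in both. As means over chromosomes the positions were 165.3 ± 3.32 and 169.6 ± 2.42 bp in high phosphate. In starvation they were 167.1 ± 10.5 and 168.1 ± 1.93 bp. The height of this peak in high phosphate was 1.14 ± 0.030 in depleted bins and 1.24 ± 0.011 in the others, and it was lower on 16 of 16 chromosomes. In starvation it stood at 1.36 ± 0.099 and 1.46 ± 0.046 and was lower on 14 of 16. The fragment length read from the strands was 133.7 ± 10.4 bp in depleted bins and 141.4 ± 1.46 bp in the others in high phosphate, a difference of -7.75 ± 10.5 bp that is smaller than its spread over chromosomes. In starvation the lengths were 151.7 ± 5.29 and 154.8 ± 1.11 bp. The libraries thus differed in fragment length and peak height in bins that changed less than 2-fold as well, and the part of this difference in the depletion was not tested.

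**Figure D4:**
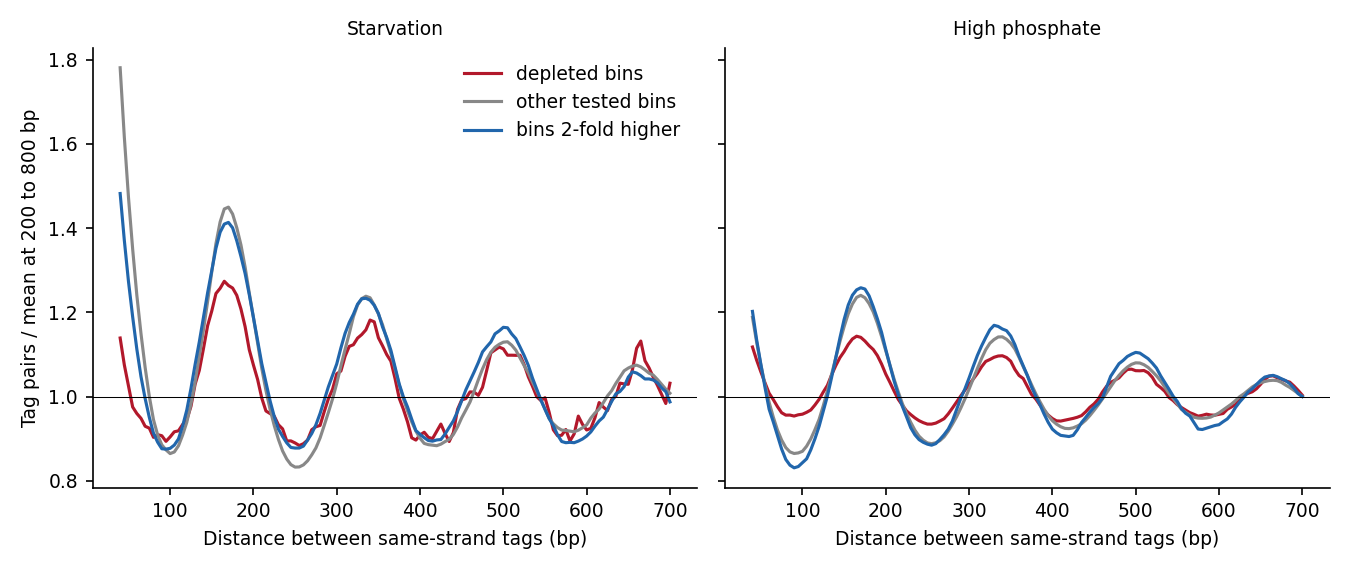
Pairs of same-strand tags inside 1 kb bins, relative to their mean at 200 to 800 bp, against the distance between them, for depleted bins, bins 2-fold higher in starvation and the other tested bins. Depleted bins have the lowest first peak, near 167 bp, in both panels, and the shallowest first trough in high phosphate.

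Tags were also spread more evenly inside depleted bins. Unevenness was taken as the variance of tag counts in 10 parts of 100 bp beyond counting error, divided by the squared mean, after 20 tags had been drawn from each bin; a value of 0 means an even spread. In high phosphate it was 0.145 ± 0.058 (SD over chromosomes) in depleted bins and 0.255 ± 0.013 in bins that changed less than 2-fold, and in starvation 0.294 ± 0.054 and 0.768 ± 0.034. In high phosphate depleted bins were more even on 16 of 16 chromosomes. The starvation values come from the tags that chose the bins and are a description. Nearly empty stretches were fewer: in high phosphate, a 100 bp part with at most 0.2 of the mean of its bin occurred in 14.8% of depleted bins (151 of 1020), in 31.3% of bins that changed less than 2-fold and in 36.3% of bins that were 2-fold higher. The first of these shares was lower than the second on 16 of 16 chromosomes. The median depleted bin had 9 high phosphate tags in its sparsest 100 bp and 39 in its densest, beside 7 and 42 over all tested bins.

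Read the other way, evenness in high phosphate alone ranked bins by how often they were depleted in starvation. Bins with at least 100 high phosphate tags were put into 5 equal classes by the unevenness of 100 tags drawn from each. The most even class contained 324 depleted bins of 2258 (14.3%, SD over chromosomes 3.59 percentage points). The following classes had 12.4%, 9.52%, 5.09% and 3.01% (SD 1.83). The share was larger in the first than in the last class on 16 of 16 chromosomes. Bins 2-fold higher in starvation ran the opposite way, from 113 in the first class to 187 in the last. The median log2 ratio of all bins in a class rose as well, from -0.43 in the first to -0.011 in the last. Median starvation tags rose from 70 to 79. The trend was thus a shift of the ratio over all bins and not particular to the depleted ones. The median number of high phosphate tags fell along the classes from 240 to 208. Neither the part of this fall in the trend nor that of the collapsed repeats was tested.

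**Figure D5:**
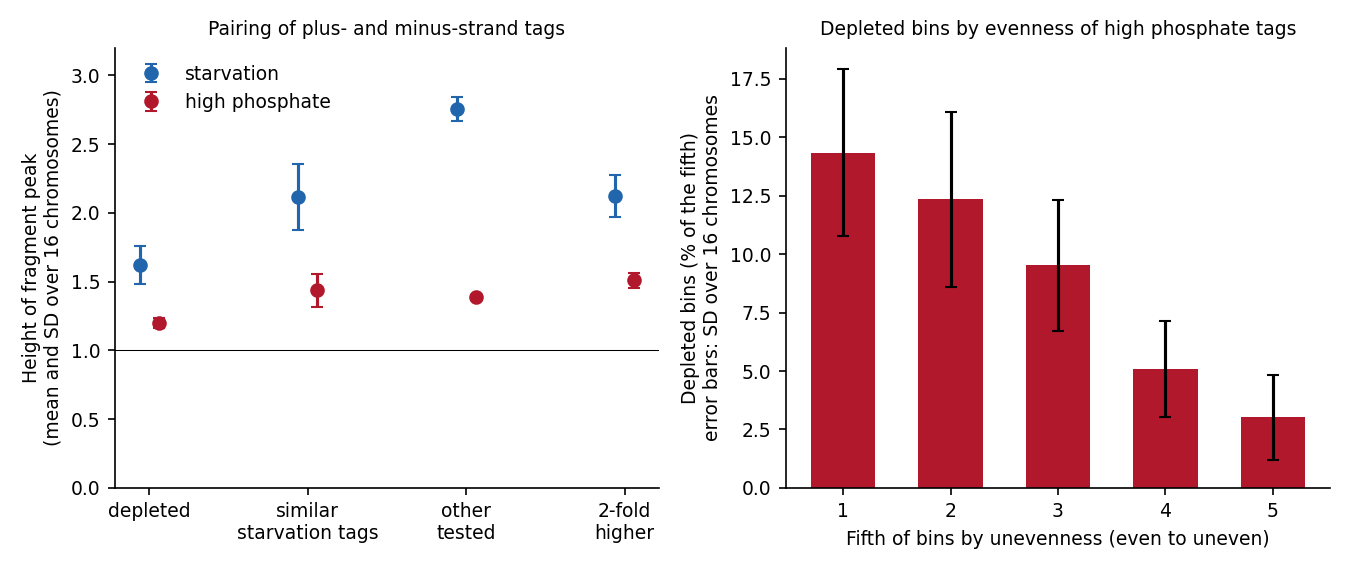
Left, height of the peak of plus-minus tag pairs at the fragment length (mean and SD over 16 chromosomes) in 4 classes of bins; depleted bins have the lowest value in each library, 1.62 and 1.20. Right, depleted bins as a percentage of bins in each of 5 classes of unevenness of high phosphate tags (bars, SD over chromosomes), falling from 14.3% to 3.01%.

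In high phosphate, linkers in depleted bins were fuller relative to the nucleosomes beside them. Dyads, the midpoints of nucleosomes, were called in 500000 tags of a library and read in the other library and in the tags left over. At dyads called in high phosphate, linkers between neighbours 140 to 200 bp apart held 43.9% of the high phosphate tags at the dyads in depleted bins (SD over chromosomes 4.74 percentage points) and 30.2% (SD 1.23) in bins that changed less than 2-fold. In starvation the same linkers held 28.4% (SD 8.63) and 20.1% (SD 1.54), values that overlap within their SDs. The number of dyads called in high phosphate was alike, 4.49 and 4.48 per bin. Per dyad the starvation tags numbered 3.29 in depleted bins and 7.74 in the others, and per linker 0.935 and 1.56. All starvation values here come from the tags that chose the bins, so lower counts are built in and the values are a description.

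Depleted bins were found on every chromosome and at every distance from the ends. They made up 4.02% of tested bins on chromosome 1 (8 bins), 5.70% on chromosome 6 and 7.17% on chromosome 8, and up to 10.2% on chromosome 13 and 10.4% on chromosome 2 (83 of 795). The low share on chromosome 1 went with the level of the whole chromosome, whose log2 ratio was 0.21. With each chromosome scaled to its own total, the share was 11.1% on chromosome 1, 14.4% on chromosome 3 and 6.35% on chromosome 4, so the order of chromosomes turns with the scaling. By distance from the outermost tag, 8 of 100 tested bins were depleted within 5 kb, and the share stayed between 7.63% and 9.13% in 6 classes further in. Bins 2-fold higher in starvation varied more over the same classes, from 0 within 5 kb to 10.2% at 50 to 100 kb.

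Depleted bins, 8.82% of all bins tested, were also counted in 20 kb windows. Of 509 windows with all 20 bins tested, 91 (17.9%) held no depleted bin, 150 (29.5%) held 1 and 123 (24.2%) held 2. Whether these counts differ from what the overall share alone would give was not tested. The 2 windows with most, 7 each, were chromosome 4 from 720001 to 740000 and chromosome 2 from 500001 to 520000, with log2 ratios of -0.43 and -0.39 over the whole window. The second of these contains the chromosome 2 run described above. Windows with 6 were chromosome 12 from 1040001 (log2 ratio -0.70), chromosome 10 from 680001 (-0.57) and chromosome 7 from 720001 (0.019). The chromosome 7 window also held 4 bins that were 2-fold higher, so depleted bins there stood beside bins that rose. The median distance between consecutive depleted bins on a chromosome was 8 kb.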

How the data were processed

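Per the labels' protocols, mononucleosomal DNA was sequenced on an Illumina Genome Analyzer and placed on the yeast release sacCer1. A label also mentions sonication, which no protocol describes. The aligner is not given in the sources used here. The deposited files list chromosome, position and strand of tags, with no repeated position and strand (0 rows), so repeats had been collapsed before deposit. This caps strong positions more in the deeper library: in depleted bins 1.89% of positions were filled in starvation and 11.3% in high phosphate.

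Tags were moved 73 bp towards the fragment middle and counted in 1 kb bins (Python 3.11.15, numpy 2.4.6, scipy 1.17.1, pandas 2.3.3). Log2 ratios of bins use the pseudocount of 0.5; intervals are 95% exact conditional binomial (Clopper-Pearson) and cover counting error only. Pair distances were taken within bins, corrected for bin edges and smoothed with an 11 bp running mean. Dyads were maxima of the moved-tag density (Gaussian SD 20 bp) that exceeded its mean, with a minimum spacing of 120 bp. Scripts were tested on simulated data.

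The bins, the comparison classes and all measures were chosen with earlier results of these data known. Named bins are, on each chromosome, the bin whose interval bound nearest to 0 is lowest, all runs of 4 bins, the 3 bins on either side of the threshold and the 20 kb windows with most depleted bins. The mitochondrial genome was not used. Alternatives covered scaling, tag shift, bin start, thinning, filled positions, tag minimum, pseudocount and strand.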

Additional observations from a re-analysis of the deposited data

How the results depend on the processing

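No paired analysis was possible because neither condition was replicated, and no library could be left out. The count of depleted bins was 565 with a pseudocount of 5, and between 725 and 1374 under the other alternatives, against 1020. The 1374, from the correction for filled positions, included 1015 of the 1020. The median log2 ratio was -1.13 with a pseudocount of 5, -1.18 after that correction, and -1.23 and -1.22 with plus-strand or minus-strand tags alone. The starvation level of 0.514 became 0.486 with scaling to the median 10 kb bin and with a pseudocount of 5, 0.507 with bins starting 500 bp later, 0.527 with thinning, 0.525 after the correction, 0.421 on either strand alone and 0.439 against the mean bin. The high phosphate level (226 tags over 225) became 1.01 with chromosome scaling and with unmoved tags, 1.04 with thinning, 1.03 with a pseudocount of 5, and 0.911 and 0.938 on the plus and the minus strand. Runs of 2 or more bins numbered 124, against 82 with median scaling, 53 with a pseudocount of 5, 197 after the correction and 202 on the minus strand. The neighbours at 1 kb, -0.21 relative to bins that were not depleted, moved to -0.19 with median scaling and -0.20 with thinning. In 100 bp parts 56.8% were 2-fold lower, against 61.3%. The share on chromosome 1 was 11.1% with chromosome scaling, against 4.02%. The cause of these moves was not tested. Fragment and array peaks moved by less than their spread over chromosomes with a 21 bp running mean and with thinning, as did unevenness with 30 tags drawn, which was added after the data were seen. Also added then were a pseudocount placed after scaling (1068 bins) and leaving out bins low in high phosphate (998 bins). The 16 leading bins kept their sign in 144 values under 9 alternatives, and 4 values, each from 1 strand alone, left the counting interval; the chromosome 9 bin was above -1 on plus-strand tags (-0.77).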

Other observations

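The lowest log2 ratio of any depleted bin rested on very few tags. Chromosome 2 from 806001 to 807000, chosen for naming after its value was seen, held 1 starvation and 25 high phosphate tags, a log2 ratio of -2.71 with a counting interval of -8.63 to -0.66. It was among 22 depleted bins at or below 0.5 of the median bin in high phosphate, which held 1 to 20 starvation and 18 to 110 high phosphate tags. Of these 22, 11 lay within 20 kb of the outermost tag of their chromosome. Tested bins within 5 kb of that tag, depleted or not, had a median of 115 high phosphate tags, beside 225 over all tested bins. How many of the 314 tested bins at or below 0.5 of the median lay within 20 kb was not counted. How many positions in the 22 bins can be placed uniquely was not measured.

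The longest stretches without a depleted bin were chromosome 16 from 798001 to 868000 (70 kb) and chromosome 9 from 368001 to 437000 (69 kb). Next were chromosome 7 from 957001 to 1023000 and chromosome 8 from 29001 to 95000 (66 kb each). Depleted bins were 8.82% of all tested bins, and whether that share alone would give such lengths was not tested.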
